A study of Drosophila melanogaster with 6 samples.

Results

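The bithorax complex is the stretch of Drosophila melanogaster chromosome arm 3R that holds the homeotic genes Ubx, abd-A and Abd-B. The region and its parts were set by position, but with earlier results of these data known, among them the many S3 peaks of the Abd-B part. Every AGO2 peak that touched 3R from 12480000 to 12820000 on build dm3 was a member. Each was placed by its centre in a Ubx part (below 12600000), an abd-A part (12600000 to below 12700000) or an Abd-B part (12700000 and above). This gave 28 peaks in the S3 line and 14 in the S2 line, 42 of the 5243 peaks in both lists. No peak crossed a border of the region or of a part.

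S3 and S2 are Schneider's cell lines, both established from embryos. The labels give no genotype change or treatment for either, and both were grown in the same medium. AGO2-bound chromatin was pulled down with a monoclonal antibody named 9D6 and sequenced (ChIP-seq), which gave 1 library and 1 deposited list of peaks per line. The labels also give an S2 library made with another AGO2 antibody, titled as a replicate, and 3 input libraries. These were not analysed here, so the peaks have no input values beside them. With 1 library analysed per line, no value has a replicate error and nothing was tested between the lines. Read depth is unknown, and intervals below cover counting error only.

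Argonaute 2 (AGO2) is best known as the small interfering RNA protein that cuts target RNAs in RNA interference. The series asks about a role of AGO2 apart from that, at insulators of the CTCF/CP190 kind, CTCF and CP190 being proteins that sit at boundaries between regulatory domains. The bithorax complex is the classic setting for such boundaries. Ubx specifies the posterior thorax and first abdominal segment, abd-A the middle abdomen and Abd-B the posterior abdomen and genitalia. The genes are read under the control of long regulatory domains that lie in the order of the segments they serve, and Polycomb proteins keep domains silent in cells where they should be off. Boundary elements such as Fub, Mcp, Fab-7 and Fab-8 separate neighbouring domains. In a RefSeq gene table of Release 6, a different assembly used for gene order only, 17 genes run from Ubx to Abd-B. Among them are 6 protein-coding genes, including the glucose transporter gene Glut3 between Ubx and abd-A, 8 long noncoding RNAs, including bxd, iab4 and iab8, and the microRNAs mir-iab-4 and mir-iab-8. No dm3 annotation was used, so peaks are given by position and are not assigned to a promoter, exon, intron or boundary element.

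The complex held many AGO2 peaks in both lines. Peak density was 8.24 per 100 kb in S3 (95% exact Poisson interval 5.47 to 11.9) and 4.12 in S2 (2.25 to 6.91). Over the rest of 3R it was 2.52 per 100 kb in S3 and 1.61 in S2. Peaks covered 36.4 kb of the complex in S3 and 17.8 kb in S2, or 10.7% and 5.23% of its length, against 4.82% and 2.82% of the rest of 3R. Of 34 successive stretches of 10 kb in the complex, 23 held an S3 peak, 12 an S2 peak and 11 both. Such a count is less affected by how a broad signal is divided into peaks. Over the whole of 3R 22.8% of such stretches held an S3 peak and 15.0% an S2 peak.

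Windows of the same length elsewhere on 3R gave the range of peak numbers along the arm. Among 1000 windows placed at random without touching the complex, S3 peaks numbered 0 to 27 with a median of 8, so none reached the 28 of the complex. S2 peaks numbered 0 to 20 with a median of 5, and 37 windows (3.7%) held at least 14. Covered length stood out less than peak number: 3.3% of windows had at least as much S3 peak sequence as the complex, and 12.4% had at least as much S2 peak sequence. Across 2L, 2R, 3L, 3R and X, 0.571% of windows held at least 28 S3 peaks and 5.84% at least 14 S2 peaks. The windows overlap one another, so these shares describe the arms and are not p-values. The region was also chosen with earlier results of these data known, so its rank among windows is not independent of that choice.

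**Figure D1:**
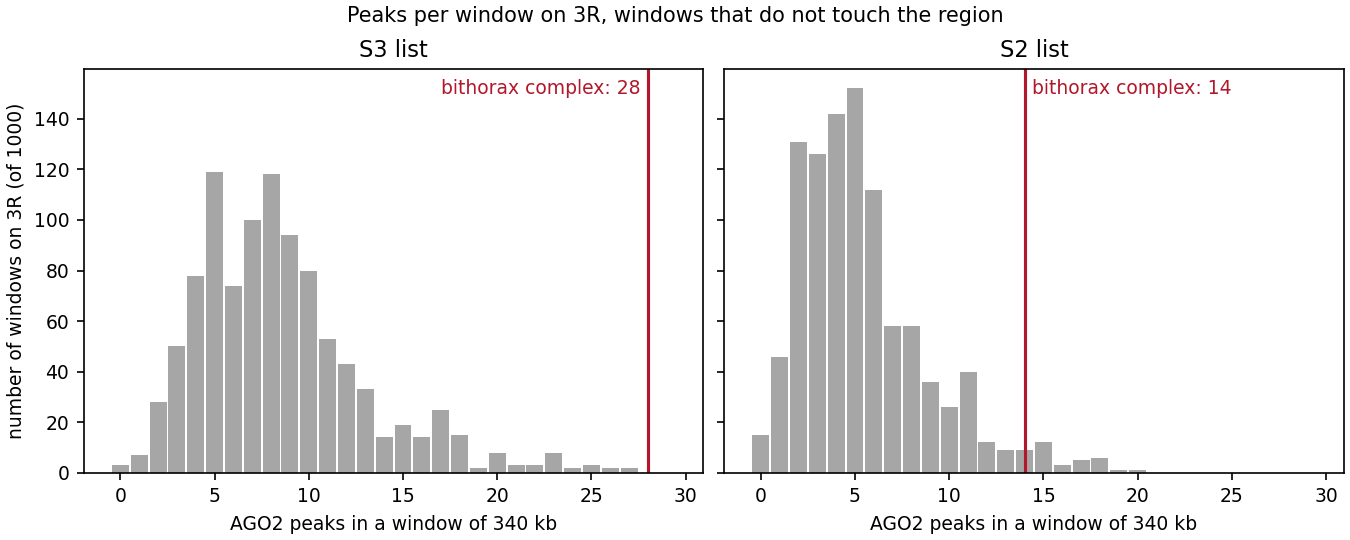
Histograms of the number of AGO2 peaks (x axis) in 1000 windows of 340 kb on 3R that do not touch the bithorax complex, with the number of windows on the y axis, for the S3 list (left) and the S2 list (right). The red line marks the complex, at 28 S3 peaks against a highest window count of 27, and at 14 S2 peaks against a median of 5 and a highest count of 20.

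A long stretch without peaks came before the complex and reached into its start. No S3 peak was listed from 12276160 to 12489702, a stretch of 213.5 kb, and no S2 peak from 12250604 to 12526429, 275.8 kb. Only 17 S3 and 13 S2 stretches between peaks on 3R were as long, these included. The adjoining 340 kb before the region held 5 S3 and 3 S2 peaks, and the 340 kb after it held 7 of each. Inside the complex the median gap between neighbouring peaks was 8.05 kb in S3 and 18.0 kb in S2, compared with 15.5 kb and 28.4 kb over the whole of 3R. The longest stretch free of peaks in both lines that lay wholly inside the complex ran from 12491415 to 12526429 in the Ubx part and measured 35.0 kb. A stretch of 33.8 kb from 12590456 to 12624226, across the border of the Ubx and abd-A parts, came next.

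Peak number went up from the Ubx part through the abd-A part to the Abd-B part in both lines. S3 listed 5, 8 and 15 peaks in the 3 parts, or 4.17, 8.0 and 12.5 per 100 kb. S2 listed 3, 4 and 7, or 2.5, 4.0 and 5.83 per 100 kb. The exact Poisson intervals of the outermost parts overlapped, at 1.35 to 9.72 per 100 kb for Ubx and 6.996 to 20.6 for Abd-B in S3, and at 0.52 to 7.31 and 2.35 to 12.0 in S2. In S2 the order did not hold among the peaks listed at a false discovery rate (FDR) of 0, the lowest value the authors' lists give a peak: there were 2, 1 and 4. In S3 there were 2, 6 and 9. With the inner borders moved 10 kb down, S2 listed 3, 3 and 8 peaks, so its Ubx and abd-A parts were level, and S3 listed 5, 7 and 16. Against windows of its own length on 3R, the Ubx part had counts that many windows reached: 22.0% of windows held at least 5 S3 peaks and 29.8% at least 3 S2 peaks. For the abd-A part the shares were 3.1% and 12.4%. For the Abd-B part they were 0.8% and 4.0%. Its many S3 peaks were known when the parts were chosen, so its shares are not independent of that choice.

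**Figure D2:**
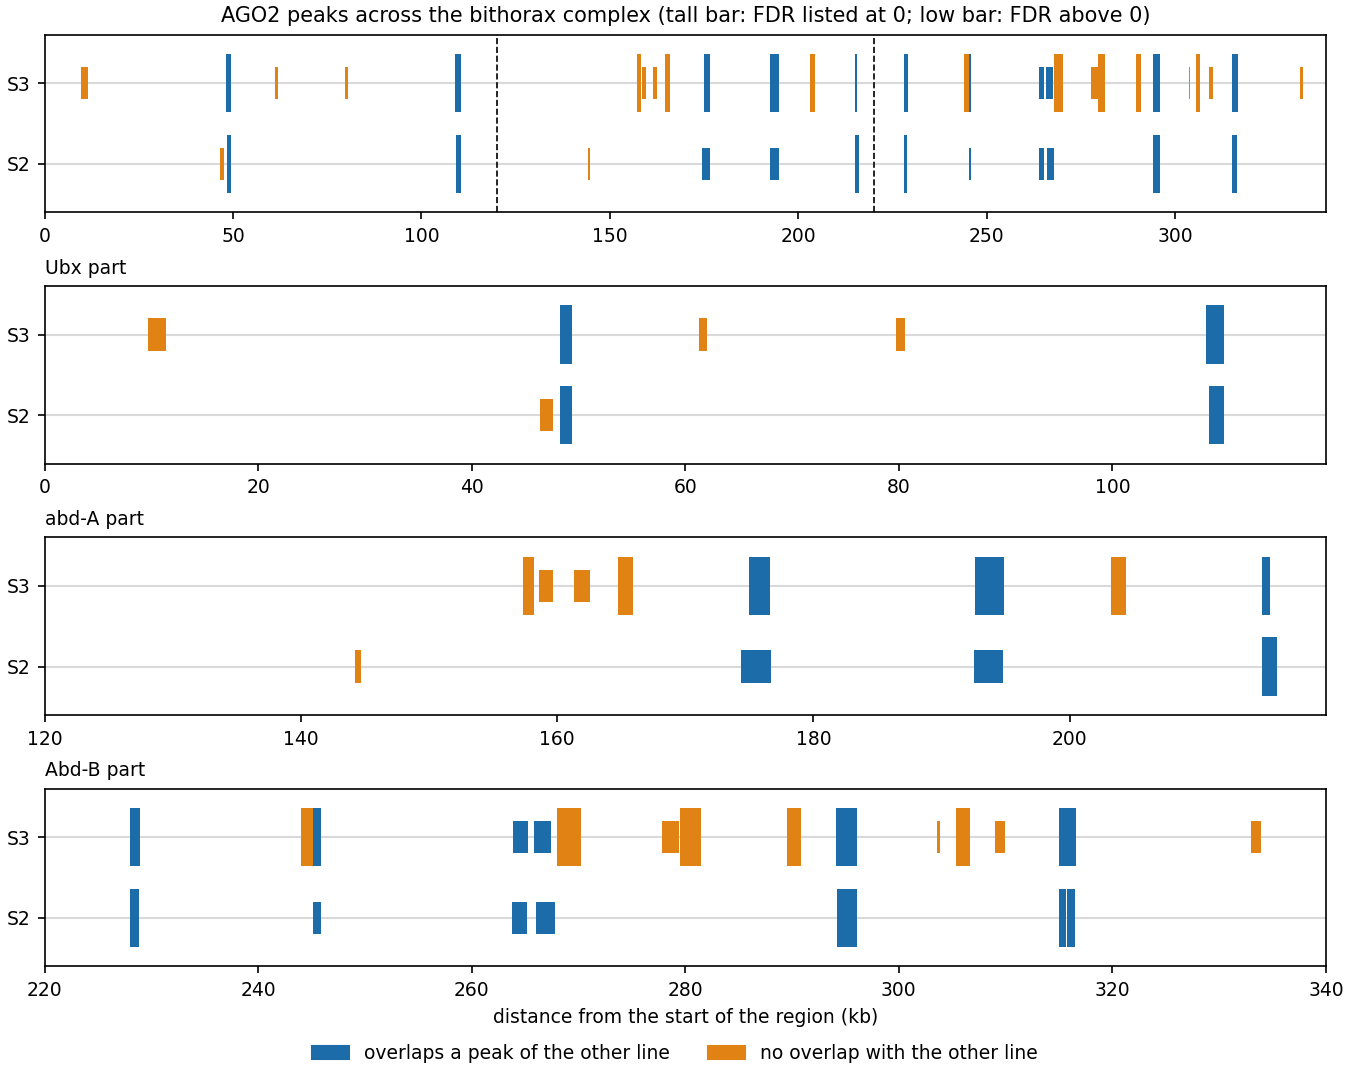
AGO2 peaks drawn to scale along the bithorax complex (top panel, dashed lines between the Ubx, abd-A and Abd-B parts) and in each part enlarged, with S3 above S2; the x axis is the distance in kb from the start of the region. Blue peaks overlap a peak of the other line and orange ones do not, and tall bars are listed at an FDR of 0; 11 of 28 S3 peaks and 12 of 14 S2 peaks are blue, and 8 of the orange S3 bars are tall.

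The lists met at 11 sites. A peak counted as partnered when it shared 1 bp or more with a peak of the other list. This was so for 11 of the 28 S3 peaks (39.3%, 95% Clopper-Pearson interval 21.5 to 59.4%), against 55.5% of the whole S3 list and 54.1% of S3 peaks on 3R outside the complex. Both of these background shares lie inside the interval. In windows of the same length the median share of partnered S3 peaks was 55.6%, and 22.1% of windows with an S3 peak had a share as low as that of the complex. Of the 14 S2 peaks, 12 had a partner (85.7%, 57.2 to 98.2%), beside 85.7% of the whole S2 list and 86.4% of S2 peaks on 3R outside the complex. Taking both lists together, there were 30 sites, of which 11 were in both lines, 17 in S3 alone and 2 in S2 alone. By part, 2 of 5 S3 peaks in Ubx, 3 of 8 in abd-A and 6 of 15 in Abd-B had an S2 partner. In the other direction, 2 of 3, 3 of 4 and 7 of 7 S2 peaks had an S3 partner.

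S3 listed 2.0 times as many peaks as S2 in the complex (exact conditional interval 1.02 to 4.11), 1.57 times as many on the rest of 3R and 1.52 times as many in the whole lists. The interval holds both background ratios, and it treats the counts as independent although many sites were in both lists. The ratio was 1.67 in the Ubx part, 2.0 in the abd-A part and 2.14 in the Abd-B part, with wide intervals that overlap (0.32 to 10.7, 0.54 to 9.08 and 0.82 to 6.21). With both whole lists cut to the same length by lowest FDR and, among ties, by width, the complex held 19 S3 and 14 S2 peaks, a ratio of 1.36. The S3 excess of 14 peaks was above that of the 1000 windows, which ranged from -3 to 12 with a median of 3. Such a difference can grow with peak number, and the S3 count was itself above that of all these windows. The excess is therefore not a separate result, and the ratio was not ranked against windows.

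Peaks at the lowest FDR were found among the partnered peaks of both lines and among the unpartnered peaks of S3. In the complex 17 of 28 S3 peaks (60.7%, 40.6 to 78.5%) stood at an FDR of 0, against 48.5% of the S3 list, and 7 of 14 S2 peaks (50%, 23.0 to 77.0%) did, against 23.3% of the S2 list. Among the 17 S3 peaks with no S2 partner, 8 were at an FDR of 0 (47.1%, 23.0 to 72.2%), beside 22.2% in the S3 list as a whole and 24.9% on the rest of 3R. The share in the list lies just below the interval and the share on the rest of 3R just inside it. Of these 8 peaks, 2 lay only 7 and 196 bp from an S2 peak. They count as unpartnered under the 1 bp rule, so the contrast depends on that rule. Read the other way, 9 of the 17 S3 peaks at an FDR of 0 had an S2 partner (52.9%, 27.8 to 77.0%), beside 79.6% in the S3 list and 77.03% on the rest of 3R. The share in the list lies above the interval and the share on the rest of 3R is level with its upper end. Both comparisons count the same 8 unpartnered peaks at an FDR of 0, so they are not separate results. Neither difference was tested. The 7 S2 peaks at an FDR of 0 all had an S3 partner, as did 98.1% of such peaks in the S2 list. The 2 S2 peaks without a partner were at 4.17% and 1.62%, and 3.02% of unpartnered S2 peaks in the whole list were at 0. How each FDR was set is not given in the sources used here, so S3 and S2 values cannot be compared directly. The same caution applies to peak numbers under the 5% limit of the lists.

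The Ubx part had the fewest peaks of the 3, and its sites in both lines were all listed at an FDR of 0. The first, centred 48.8 kb from the start of the region in S3, ran from 12528264 to 12529415 in S3 and from 12528311 to 12529437 in S2, with widths of 1152 and 1127 bp. Its borders differed by 47 and 22 bp between the lines. The second, from 12588778 to 12590455 in S3 and 12589073 to 12590423 in S2, differed more, and its S2 peak of 1351 bp lay wholly inside the S3 peak of 1678 bp. No other Ubx peak in either line was at an FDR of 0.

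The unpartnered peaks of the Ubx part were scattered. S3 alone listed peaks at 12489703 to 12491414 (1712 bp, FDR 0.06%), 12541251 to 12542041 (791 bp, 2.64%) and 12559699 to 12560617 (919 bp, 0.16%). They lay 35.0, 11.8 and 28.5 kb from the nearest S2 peak, so no S2 border was near any of them. S2 alone listed a peak of 1139 bp from 12526430 to 12527568 at an FDR of 4.17%, the highest of the 14 S2 peaks. It ended 695 bp short of the S3 peak at 12528264, which is partnered with the next S2 peak.

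In the abd-A part the S3 line listed a group of 4 peaks where S2 listed none. They ran from 12637307 to 12638228 (922 bp, FDR 0), 12638579 to 12639679 (1101 bp, 4.64%), 12641313 to 12642548 (1236 bp, 0.16%) and 12644740 to 12645883 (1144 bp, 0). All 4 fell within 8.6 kb, with 350 bp between the first and second, and each was 8.45 to 13.9 kb from an S2 peak. The S2 line had no peak from 12624679 to 12654332, a stretch of 29.7 kb that takes in the whole group. S3 also listed a lone peak of 1151 bp at 12683221 to 12684371 at an FDR of 0, 8.43 kb from the nearest S2 peak. The only S2 peak of the abd-A part with no S3 partner was at 12624227 to 12624678, the narrowest of the 14 at 452 bp, with an FDR of 1.62% and 12.6 kb to the nearest S3 peak.

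The sites in both lines in the abd-A part were divided between closely matching and unequal ones. At 12672583 to 12674858 in S3 and 12672551 to 12674793 in S2 the widths were 2276 and 2243 bp, and the borders differed by 32 and 65 bp. The other sites were wider in S2. One ran from 12654973 to 12656616 in S3 (1644 bp) and from 12654333 to 12656685 in S2 (2353 bp, the widest S2 peak of the complex), so that S2 reached 640 bp further on the low side. Another ran from 12695020 to 12695615 in S3 (596 bp) and from 12695006 to 12696172 in S2 (1167 bp), with starts 14 bp apart and an S2 end 557 bp further on. The S3 peak was 0.70 and 0.51 times as wide as the S2 peak at these sites and lay wholly inside it. All 3 S3 peaks were at an FDR of 0, while the S2 peaks were at 0.17%, 0.09% and 0 in the order given.

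**Figure D3:**
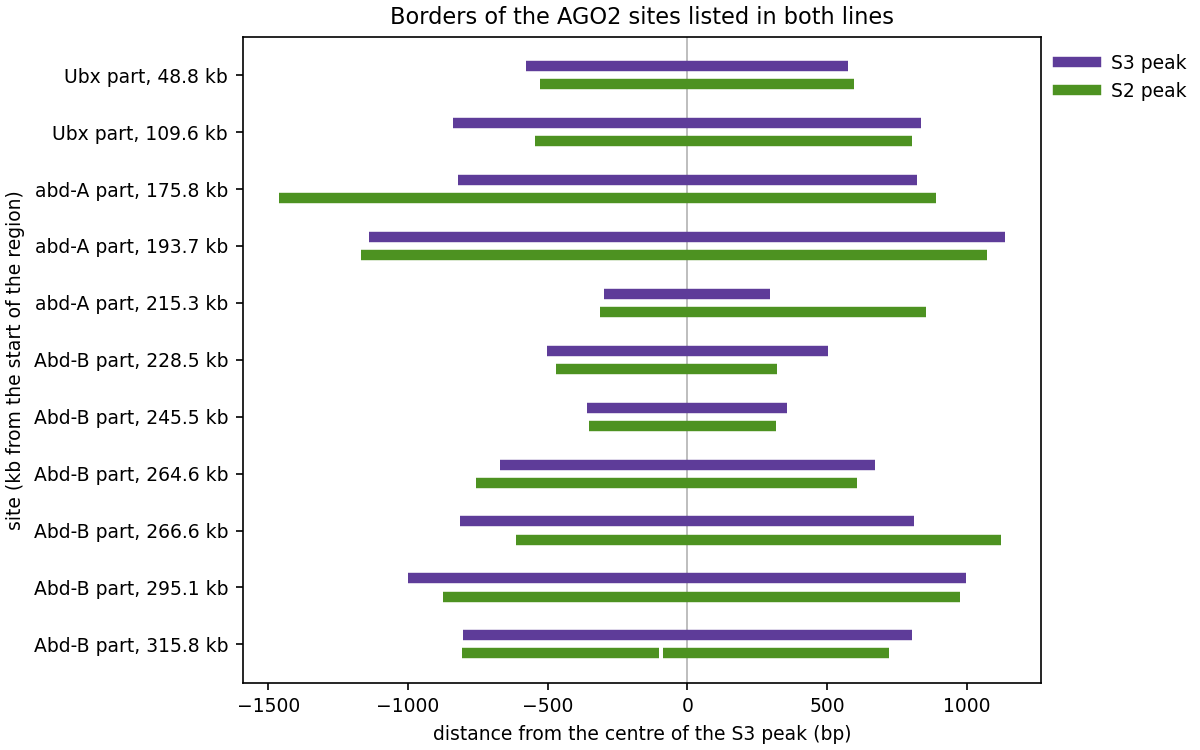
The 11 AGO2 sites of the bithorax complex listed in both lines, one per row from Ubx at the top to Abd-B at the bottom, with S3 peaks in purple above S2 peaks in green; the x axis is the distance in bp from the centre of the S3 peak. Both borders lie within 100 bp of each other at 4 of the 10 sites with 1 peak in each line, S2 reaches 640 and 557 bp further at the sites 175.8 and 215.3 kb from the start, and at the last site 1 S3 peak faces 2 S2 peaks.

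The Abd-B part held 15 of the 28 S3 peaks and 7 of the 14 S2 peaks, and all 7 S2 peaks met an S3 peak. The interval for these 7 (59.0 to 100%) holds the 86.4% of S2 peaks partnered on the rest of 3R. Peaks covered 16.7% of the part in S3 and 6.61% in S2. Of the 7935 bp of S2 peak sequence, 7538 bp (95%) lay inside S3 peaks, against 81.3% in the whole complex and 74.9% on the rest of 3R. The value for the complex includes this part. This contrast rests on 7 S2 peaks, has no interval or rank among windows, and was not tested. The first site, at 12707972 to 12708977 in S3 and 12708003 to 12708797 in S2, had widths of 1006 and 795 bp and an FDR of 0 in both lines. The next showed the closest centres of the complex, 17 bp apart: the S3 peak ran from 12725173 to 12725889 (717 bp, FDR 0) and the S2 peak from 12725178 to 12725850 (673 bp, 0.08%). Directly before it S3 listed another peak at an FDR of 0, from 12724017 to 12725170, 1154 bp wide. Only 2 bp separated both S3 peaks, and the S2 peak began 7 bp beyond the end of the first, so under the overlap rule that S3 peak counted as unpartnered.

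A run of peaks followed, with S3 centres 264.6 to 269.1 kb from the start of the region. S3 listed 3 peaks there, at 12743904 to 12745245 (1342 bp, FDR 0.06%), 12745834 to 12747459 (1626 bp, 0.47%) and 12747966 to 12750280 (2315 bp, 0). S2 listed 2, at 12743820 to 12745184 (1365 bp) and 12746035 to 12747769 (1735 bp), both at 0.33%. The lines thus shared the first 2 peaks of the run, which were the only shared S3 peaks of the complex above an FDR of 0. The last S3 peak of the run, the widest of the 28, began 196 bp past the end of the second S2 peak.

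Beyond this run S3 listed several peaks in stretches where S2 had none. An adjoining pair at 12757783 to 12759442 (1660 bp, FDR 0.57%) and 12759510 to 12761447 (1938 bp, 0) was divided by 67 bp and lay 10.0 and 11.7 kb from S2 peaks. A peak at 12769493 to 12770815 (1323 bp, FDR 0) was 3.40 kb from one. Between the last 2 sites in both lines S3 listed 12783559 to 12783844, the narrowest of its 28 peaks at 286 bp (4.49%), then 12785391 to 12786632 (1242 bp, 0) and 12789049 to 12789976 (928 bp, 0.16%). These 3 were 5.01 to 8.36 kb from an S2 peak. The last S3 peak of the region, at 12813025 to 12813943 (919 bp, 0.24%), stood alone, 13.9 kb from an S2 peak. In S2 the stretch from 12747770 to 12774213, 26.4 kb long, held no peak, and 4 S3 peaks lay wholly inside it.

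The last sites in both lines of the Abd-B part were at an FDR of 0 throughout. One ran from 12774087 to 12776086 in S3 (2000 bp) and 12774214 to 12776063 in S2 (1850 bp, wholly inside). The other was the only site of the complex where the lists divided the same stretch differently. A single S3 peak of 1608 bp from 12794991 to 12796598 faced S2 peaks of 708 bp (12794988 to 12795695) and 809 bp (12795709 to 12796517), which were 13 bp apart. The outer borders differed by 3 and 81 bp, so the lines outlined nearly the same stretch.

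Over the 10 sites with 1 peak in each line, peak centres were a median of 73.5 bp apart (17 to 285.5 bp), against 87.5 bp (quartiles 26 and 358.4) over all 1490 such pairs of the lists. S3 peaks were wider at 6 of the 10 sites and S2 peaks at 4. The ratio of S3 to S2 width had a median of 1.02 and ran from 0.51 to 1.26, compared with a median of 1.06 over all pairs. At 4 sites both borders agreed within 100 bp, and all 10 pairs overlapped by at least 50% of both peaks. Of the 12 overlapping pairs of peaks, 10 had the S3 peak at an FDR of 0, 7 had the S2 peak at 0, and 7 had both. The S3 peak that met 2 S2 peaks is in 2 of these pairs. Counted by peak, 9 of 11 partnered S3 peaks were at 0, beside 1218 of 1752 in the S3 list. For S2 it was 7 of 12, beside 476 of 1786 in the S2 list.

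Peaks of the complex were not among the broadest of the arm. The median was 1195 bp in S3 (286 to 2315) and 1153 bp in S2 (452 to 2353), against 1524 bp and 1291 bp on the rest of 3R. On the rest of 3R single peaks measured up to 8302 bp in S3 and 15202 bp in S2. Partnered S3 peaks had a median of 1608 bp and unpartnered ones 1151 bp, beside 1660 and 1389 bp on the rest of 3R. In S2 the medians were 1259 bp for the 12 partnered peaks and 795.5 bp for the 2 others, beside 1322 and 1197 bp on the rest of 3R. Partnered peaks were thus the wider ones on the rest of the arm too. A wide peak has more room to touch a peak of the other list, and the part of this in the widths was not tested.

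**Figure D4:**
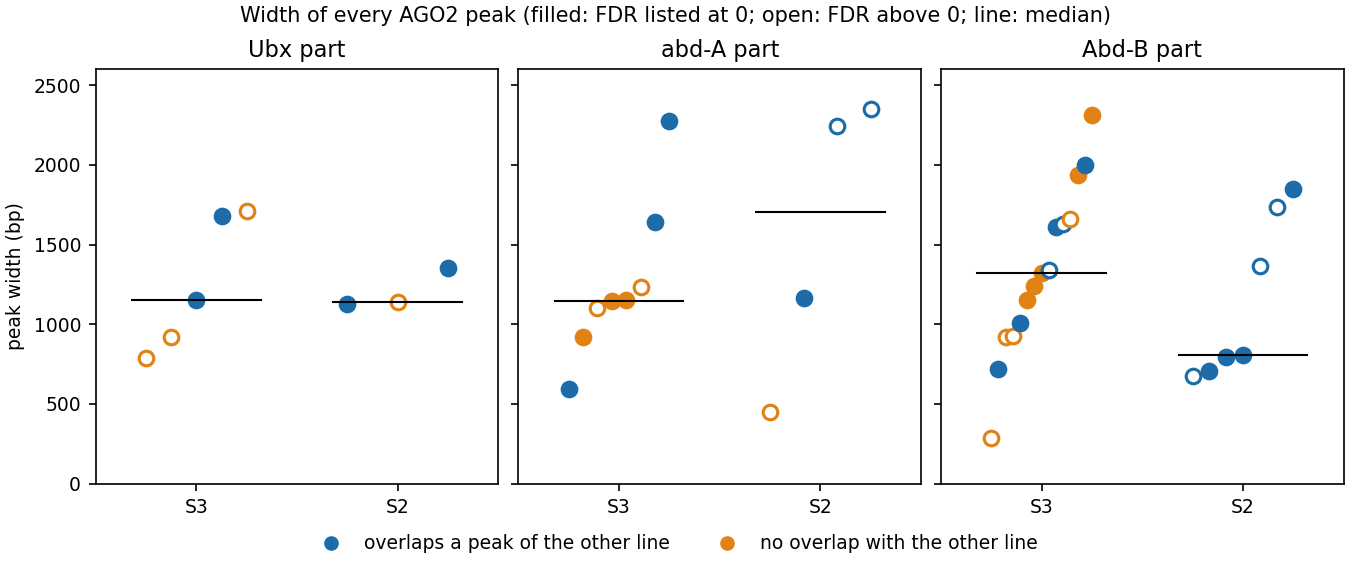
Width in bp (y axis, from 0) of every AGO2 peak in the Ubx, abd-A and Abd-B parts, S3 left of S2 in each panel; blue points overlap a peak of the other line and orange ones do not, filled points are listed at an FDR of 0 and open ones above 0, and the black line is the median. In the Abd-B part S3 points run from 286 to 2315 bp with 9 of 15 orange, and all 7 S2 points are blue.

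Of the 17 S3 peaks without an S2 partner, 2 lay within 1 kb of an S2 peak, 3 within 5 kb and 9 more than 10 kb away. The median distance was 10.0 kb and the longest 35.0 kb. The same distances were not taken for unpartnered S3 peaks outside the complex, so whether the complex differs in this is not known. A peak caller draws a peak only where reads pass its threshold, so a site missing from the shorter S2 list may still carry signal below that threshold. Reads over these sites were not analysed here.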

How the data were processed

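The peak lists of the S3 and S2 libraries made with antibody 9D6 were used, grouped by the sample titles. Tools named in the submitters' processing notes are MACS 1.3.7.1 and Bowtie 0.12.5, and the genome build is dm3; their roles are not stated there. The authors deposited 1 list per library, not pooled, with a chromosome, a start, an end and an FDR in percent per peak; per the file headers, the lists hold peaks at an FDR of 5%. Reading the last column as percent rests on that header and on its highest values, 5 in S3 and 4.94 in S2. Neither the input set against each ChIP library nor the read filters or depth is given in the sources used here. With more reads, a caller can list more peaks, or broader ones, for unchanged binding.

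Starts were converted to count from 1. Peaks were called shared at an overlap of 1 bp. Windows were drawn on the 27.8 Mb of 3R up to its last listed peak, and sequence that reads cannot be mapped to was not excluded. Shares have Clopper-Pearson and counts exact Poisson intervals at 95%. There was no test, since 1 library per line was analysed. Peaks named in full were the lowest in FDR of each part, unpartnered peaks at an FDR of 0, differently divided sites, the closest and most unlike pairs, and the longest empty stretch; the other members follow by position. The region and its parts were chosen with earlier results of these data known, among them the many S3 peaks of the Abd-B part. Python 3.11.15, numpy 2.4.6, pandas 2.3.3, scipy 1.17.1 and matplotlib 3.10.9 were used, and overlaps were tested on simulated data with planted partners. Alternatives were stricter FDR limits, joined neighbours, other overlap rules, lists of equal length, moved part borders and other windows.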

Additional observations from a re-analysis of the deposited data

How the results depend on the processing

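Of 112 values recomputed under alternatives, 96 stayed within 1.5 times the main count or length, or inside the main share's 95% binomial interval. For shares of windows that interval treats overlapping windows as independent, so it is too narrow and serves only as a yardstick. Keeping only peaks at an FDR of 0 left 17 S3 and 7 S2 peaks in the complex, with 2 S3 peaks in Ubx, 9 in Abd-B, and 1 and 4 S2 peaks in abd-A and Abd-B; covered length was then 23.9 kb in S3 and 7.81 kb in S2, as fewer peaks are kept by construction. All S2 peaks had an S3 partner (100%) both at an FDR of 0 and at 1% or less. Lists of equal length left 3 S3 peaks in Ubx. With windows allowed to touch the complex, 0.4% held at least as many S3 peaks, and over 5 arms 0.571% did. For S2 peaks the share was 1.1% with neighbours under 500 bp apart joined and 5.84% over 5 arms, against 3.7%. Joining also moved the share of windows with at least the S3 overlap of the complex to 72.8%, from 77.9%; the cause was not tested. Partnered S3 peaks in the complex ran from 35.3% to 52.6% over its alternatives. No paired analysis was possible because 1 library per line was analysed, and no test was made. Depth is unknown, so how far it limits the S2 list cannot be told.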
